A study of Mus musculus with 12 samples.

Results

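The genes described here encode the core and the scaffold of elastic fibres: elastin (Eln), fibrillin-1 (Fbn1), the fibulins Fbln1, Fbln5, Efemp1 and Efemp2, the microfibril-associated proteins Mfap2, Mfap4 and Mfap5, and Emilin1. They were taken by name from the RPKM table (reads per kilobase, corrected for the size of the library), and all 10 names were found among its 21954 genes. RNA came from the proximal and the distal ascending aorta of 6 mice at 2 months of age. Of these, 3 were heterozygous for Notch1 (strain Notch1.129S6+/-) and 3 were wildtype littermates, which gives 3 libraries each for Notch1+/- proximal, Notch1+/- distal, wildtype proximal and wildtype distal tissue. The design asked what differs between the aortic wall close to the root, where the heterozygous mice dilate, and the wall farther out. The labels describe neither the structure of the targeted allele nor any promoter, Cre or cell type.

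Elastic fibres let a large artery stretch with each heartbeat and recoil afterwards. Smooth muscle cells and fibroblasts secrete tropoelastin, the soluble product of Eln, which is gathered by fibulins, laid onto a scaffold of fibrillin microfibrils and cross-linked by lysyl oxidases. In mice and humans, loss of function in several of these genes causes narrowing, aneurysm or dissection of the aorta.

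Libraries held 26518332 to 36742096 reads in total. The tests took in 17297 genes that reached 1 RPKM in 3 or more libraries, and all 10 members were among them. Acta2 and Myh11, which define smooth muscle, were abundant in every library, at 1401 to 2620 RPKM for Acta2 and 750.1 to 1427 RPKM for Myh11. Notch1 itself averaged 1.83 ± 0.32 RPKM in the proximal libraries labelled Notch1+/- and 1.29 ± 0.24 RPKM in wildtype proximal libraries (SD, n = 3 each). In distal tissue it averaged 1.52 ± 0.34 RPKM in the libraries labelled Notch1+/- and 0.877 ± 0.30 RPKM in wildtype. That direction goes against the genotype label, so the group is written below as the libraries labelled Notch1+/-. No gene tested was called between genotypes at either location, so the Notch1 difference was not called. Of all genes tested, 31.6% in proximal and 57.0% in distal tissue were fitted lower in that group. Heart muscle transcripts moved with location: 10 of 14 heart muscle markers were called higher in proximal tissue, and their summed level was 268.2 to 1690 RPKM in the 6 proximal libraries and 26.3 to 324.2 RPKM in the 6 distal libraries. None of the 10 names is a marker of heart muscle in the lists used, and the part of this heart muscle signal in the results below was not tested beyond the values given beside them.

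The members spanned a wide range of expression. Mfap4 was the most abundant, with a mean of 836.9 RPKM over the 12 libraries, and ranked 51 among the genes of the table. Eln came next at 154.0 RPKM, followed by Fbln5 at 42.7, Mfap5 at 36.5, Fbn1 at 31.2, Efemp1 at 23.2 and Fbln1 at 17.4 RPKM. Emilin1 and Efemp2 lay lower, at 5.91 and 5.39 RPKM, and Mfap2 lowest at 0.991 RPKM. RPKM is a level per length, so these levels can be set side by side. The lowest Mfap4 library, at 567.1 RPKM, lay above the highest Eln library, at 356.5 RPKM, and the lowest Fbln1 library, at 13.2 RPKM, lay above the highest Emilin1 library, at 8.83 RPKM. Every other pair of neighbours in this order overlapped between libraries.

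**Figure D1:**
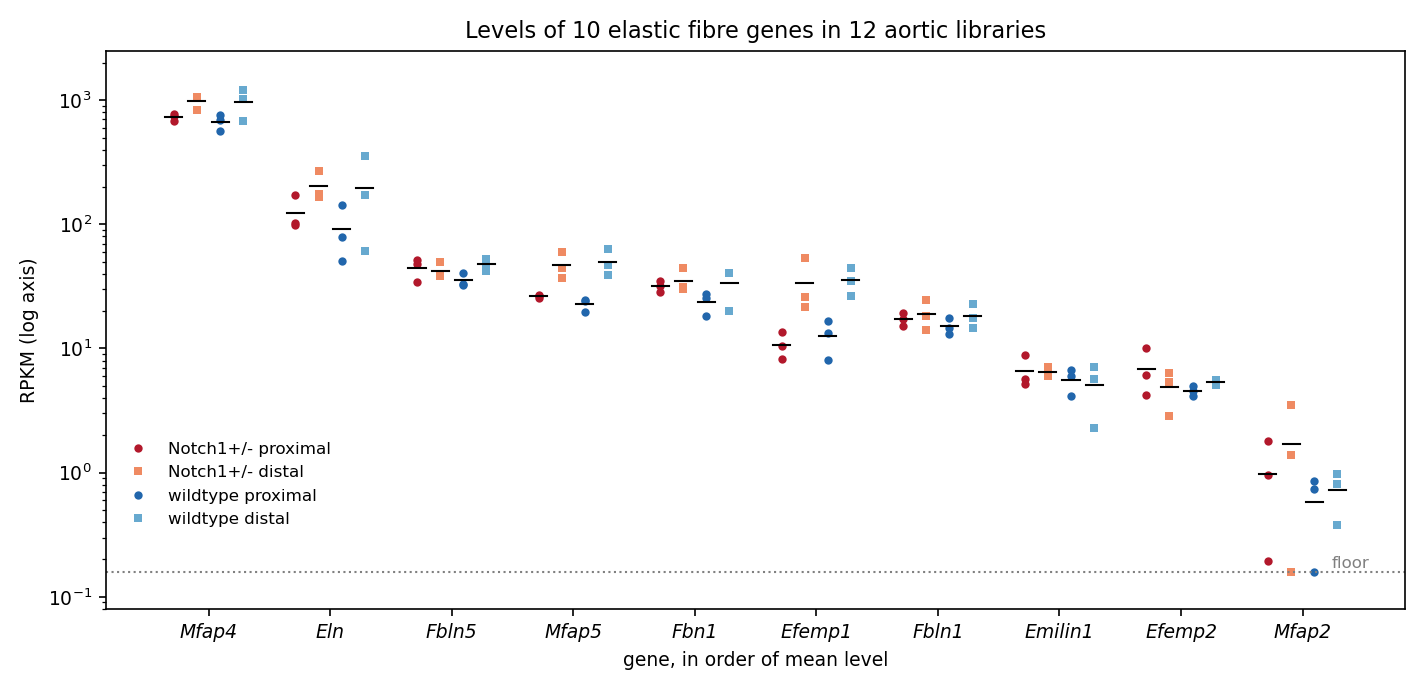
RPKM of the 10 genes on a log axis, with 1 point for each library and a black bar at the mean of each group of 3; circles are proximal and squares distal libraries, red for those labelled Notch1+/- and blue for wildtype. Mfap4 stands above all others, the proximal points of Mfap5 and Efemp1 lie below all their distal points, and Mfap2 reaches the floor of 0.158 RPKM (dotted line) in 2 libraries.

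Between locations, averaged over the genotypes, 2 of the 10 genes passed the test, Mfap5 and Efemp1, both lower in proximal tissue. Mfap5 was at 0.507 and Efemp1 at 0.339 of the distal mean. The test was limma on log2(RPKM + 0.5) with Benjamini-Hochberg adjustment over all genes tested, and a gene was called at an adjusted p under 0.05. The same test called 1.5% of all genes (134 higher and 126 lower in proximal tissue). The other 8 were not called, 6 of them fitted lower and 2 higher in proximal tissue. The median of the 10 log2 differences was -0.29, beside a median of -0.05 over all genes tested, of which 58.5% were fitted lower. These are bulk tissues, so fewer cells of a type and less RNA per cell cannot be told apart.

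**Figure D2:**
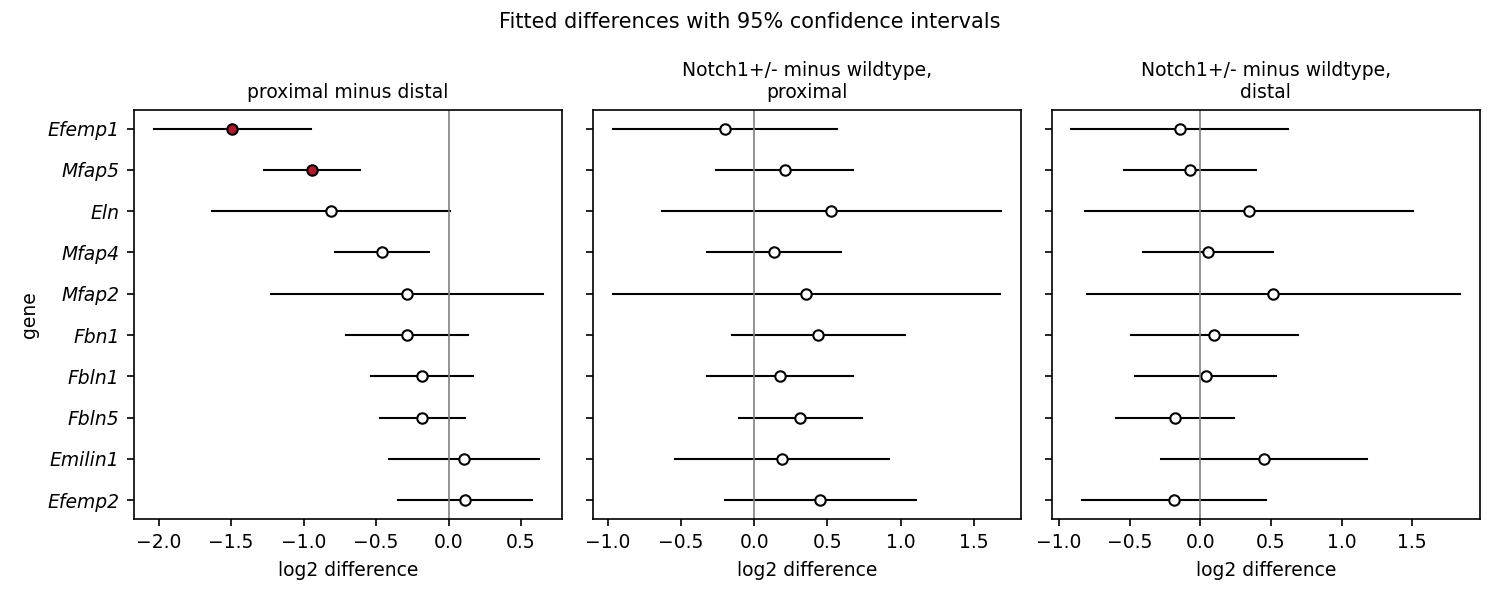
Fitted log2 differences of the 10 genes with 95% confidence intervals from limma: proximal minus distal tissue averaged over the genotypes (left), and libraries labelled Notch1+/- minus wildtype in proximal (middle) and distal tissue (right). Filled points are called at an adjusted p under 0.05: Efemp1 at -1.49 and Mfap5 at -0.94 on the left, and none in either genotype comparison.

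Mfap5 (ENSMUSG00000030116, mm10 chromosome 6, 122505845 to 122529290, plus strand) encodes a small glycoprotein that sits on fibrillin microfibrils and, in cultured cells, binds Notch ligands and the Notch1 receptor. In proximal tissue it measured 27.0, 26.3 and 25.7 RPKM in the libraries labelled Notch1+/- and 24.1, 24.7 and 19.7 RPKM in wildtype. In distal tissue it measured 44.8, 60.1 and 36.9 RPKM in the libraries labelled Notch1+/- and 38.9, 62.8 and 47.4 RPKM in wildtype. All 6 proximal libraries lay below all 6 distal libraries, a separation in this direction that 1.02% of all genes tested showed. Means were 24.6 ± 2.60 RPKM in proximal and 48.5 ± 10.8 RPKM in distal tissue (SD, n = 6 each), and the fitted log2 difference was -0.94 (SE 0.15, limma adjusted p = 0.00862). The proximal libraries were also the tighter group, within 19.7 to 27.0 RPKM, against 36.9 to 62.8 RPKM in distal tissue.

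Efemp1 (ENSMUSG00000020467, mm10 chromosome 11, 28853204 to 28926743, plus strand) encodes fibulin-3, a secreted fibulin of basement membranes and loose connective tissue whose loss in mice thins the elastic fibres of fascia. Its proximal levels were 13.6, 10.4 and 8.27 RPKM in the libraries labelled Notch1+/- and 8.09, 16.6 and 13.4 RPKM in wildtype. Its distal levels were 21.5, 53.9 and 26.0 RPKM in the libraries labelled Notch1+/- and 44.5, 35.2 and 26.3 RPKM in wildtype. Here too the 6 proximal libraries lay below the 6 distal ones, with a wide spread among the distal libraries. Means were 11.7 ± 3.38 RPKM in proximal and 34.6 ± 12.5 RPKM in distal tissue (SD, n = 6 each). The fitted log2 difference was -1.49 (SE 0.25, limma adjusted p = 0.0105), the largest in size among the 10 genes, and 311 to 1782 reads stood behind each value. Within a mouse the distal level was 1.58 to 5.50 times the proximal one.

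Both calls were kept with any 1 library left out, under each of the 4 other scalings, and after leaving out both distal libraries richest in Myh6, a heart muscle gene (limma adjusted p = 0.0439 for Mfap5 and 0.0213 for Efemp1). Once a score of heart muscle genes entered the model as a covariate, neither was called: the log2 differences were -1.08 for Mfap5 (limma adjusted p = 0.607) and -1.30 for Efemp1 (limma adjusted p = 0.77). That score has a correlation of 0.857 with location over the 12 libraries, and in the same fit only 3 genes of the table were called, so location and heart muscle content can hardly be told apart there.

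Eln (ENSMUSG00000029675, mm10 chromosome 5, 134702593 to 134747323, minus strand), the gene of the elastic core, was lower in proximal than in distal tissue of every mouse. Proximal levels were 102.6, 98.7 and 171.3 RPKM in mice 1, 2 and 3 labelled Notch1+/- and 50.9, 79.3 and 142.6 RPKM in wildtype mice 1, 2 and 3. The distal levels of the same mice were 165.9, 174.0 and 271.3 RPKM in those labelled Notch1+/- and 61.3, 173.2 and 356.5 RPKM in wildtype. The groups overlapped widely: mouse 3 was the highest of its genotype and wildtype mouse 1 the lowest of all 6 at both locations. Means were 107.6 ± 43.4 RPKM in proximal and 200.4 ± 101.3 RPKM in distal tissue (SD, n = 6 each), and Eln was not called when libraries were treated as unpaired (log2 difference -0.81, SE 0.38, limma adjusted p = 0.455).

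The proximal and distal libraries of a number come from the same mouse, and with the mouse as a block the error of the Eln difference fell to an SE of 0.15 and Eln was called (log2 difference -0.81, limma adjusted p = 0.0428). The blocked fit called 233 genes, 1.35% of those tested, and 3 of the 10 members, with Mfap5 (limma adjusted p = 0.0211) and Efemp1 (limma adjusted p = 0.0287) again among them. Leaving out a mouse ended the blocked call of Eln for 5 of the 6, at limma adjusted p = 0.109 to 0.154, while the log2 difference stayed between -0.97 and -0.71. Without wildtype mouse 1 it was called (limma adjusted p = 0.0261). Under the block, leaving out 1 mouse also ended the call of Mfap5 for 5 of 6 mice and of Efemp1 for 4 of 6, at limma adjusted p of up to 0.10 and 0.121. Eln, Efemp1 and Mfap5 were lower in proximal tissue in 6 of 6 mice, which held for 5.65% of all genes tested. The fold within a mouse ran from 1.20 to 2.50 times higher in distal tissue for Eln.

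**Figure D3:**
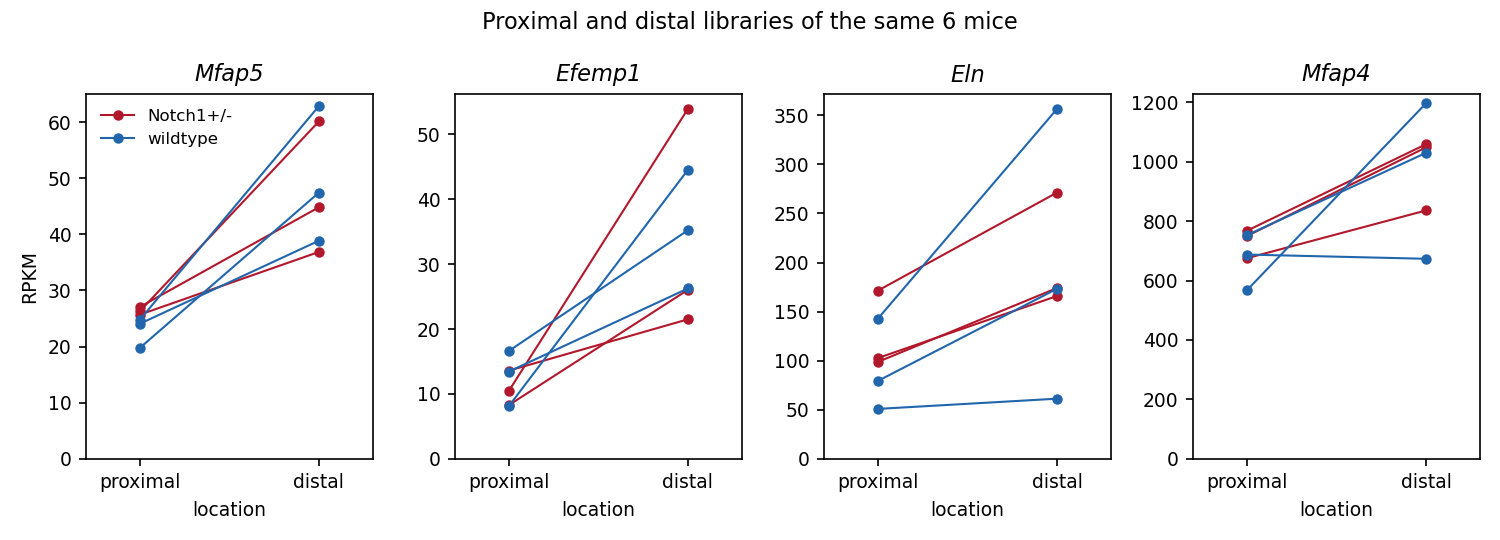
RPKM of Mfap5, Efemp1, Eln and Mfap4 in the proximal (left) and distal (right) library of each mouse, joined by a line; red lines are mice labelled Notch1+/- and blue lines wildtype mice, 3 each. For Mfap5, Efemp1 and Eln all 6 lines are lower at the proximal end, and for Mfap4 5 of 6 are.

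Of the microfibril genes, Fbn1 encodes the fibrillin that forms the microfibril backbone and is mutated in human Marfan syndrome. Its proximal levels were 32.1, 28.8 and 35.1 RPKM in the libraries labelled Notch1+/- and 18.3, 25.5 and 27.6 RPKM in wildtype. Its distal levels were 31.2, 44.1 and 30.1 RPKM in the libraries labelled Notch1+/- and 20.2, 40.6 and 40.8 RPKM in wildtype. The locations overlapped, and the log2 difference of -0.29 (SE 0.19, limma adjusted p = 0.671) was not called. The libraries carry no strand, and 20.1% of the exon bases of Fbn1 also belong to Gm9913 on the opposite strand, so its reads cannot be fully assigned. For Efemp2, Mfap4 and Eln the shared part was 4.57%, 4.63% and 3.30% of the exon bases, and the other 6 genes shared none with a gene on the opposite strand.

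Mfap4, whose fibrinogen-like product binds both tropoelastin and microfibrils, measured 749.7, 767.5 and 675.1 RPKM in proximal libraries labelled Notch1+/- and 687.6, 752.7 and 567.1 RPKM in wildtype proximal libraries. Distal levels were 1048, 1059 and 836.1 RPKM in libraries labelled Notch1+/- and 673.4, 1030 and 1197 RPKM in wildtype. Only wildtype mouse 1 had a proximal level above its distal one, and the ranges met only through that distal library. The log2 difference was -0.46 (SE 0.15, limma adjusted p = 0.206), not called. Without that wildtype distal library Mfap4 passed the test narrowly (log2 difference -0.58, limma adjusted p = 0.0499), and likewise with array weights (limma adjusted p = 0.0441).

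Mfap2, a relative of Mfap5 that binds tropoelastin and transforming growth factor beta, was close to the limit of measurement. Its proximal levels were 0.952, 0.193 and 1.79 RPKM in libraries labelled Notch1+/- and 0.743, 0.158 and 0.849 RPKM in wildtype. Its distal levels were 0.158, 1.37 and 3.52 RPKM in libraries labelled Notch1+/- and 0.970, 0.807 and 0.381 RPKM in wildtype. The value of 0.158 in 1 distal library labelled Notch1+/- and in 1 wildtype proximal library is the floor that the authors put in place of lower values, and the other libraries held 4 to 74 reads. The log2 difference was -0.29 (SE 0.43, 95% interval -1.22 to 0.65, limma adjusted p = 0.889), not called.

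Of the fibulins, Fbln5 encodes the tropoelastin-binding fibulin that tethers elastin to cells and microfibrils. Its levels were 51.6, 48.3 and 34.6 RPKM in proximal libraries labelled Notch1+/- and 40.8, 32.7 and 33.3 RPKM in wildtype proximal libraries. In distal tissue they were 39.6, 49.6 and 38.2 RPKM in libraries labelled Notch1+/- and 42.5, 49.1 and 52.5 RPKM in wildtype. The wildtype proximal libraries lay below the wildtype distal ones without overlap, as they did for 4 of the 10 genes and for 11.1% of all genes tested, and the libraries labelled Notch1+/- overlapped. Averaged over genotypes the log2 difference was -0.18 (SE 0.14, limma adjusted p = 0.714). Its range over the 12 libraries, 32.7 to 52.5 RPKM, was the narrowest of the 10 genes, at 1.61 times from lowest to highest.

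Efemp2 encodes fibulin-4, which brings lysyl oxidase to tropoelastin and whose reduction in mice causes aneurysm of the ascending aorta. Its levels were 10.0, 4.22 and 6.15 RPKM in proximal libraries labelled Notch1+/- and 4.17, 4.96 and 4.57 RPKM in wildtype proximal libraries. In distal tissue they were 6.34, 5.35 and 2.87 RPKM in libraries labelled Notch1+/- and 5.11, 5.53 and 5.40 RPKM in wildtype. The libraries labelled Notch1+/- held both the highest and the lowest value, and wildtype libraries stayed within 4.17 to 5.53 RPKM, where Efemp2, like Fbln5, was below the distal values in all 3 proximal libraries. The log2 difference between locations was 0.11 (SE 0.21, limma adjusted p = 0.915).

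Fbln1, a fibulin found within elastic fibres and in basement membranes, ranged from 13.2 to 19.1 RPKM in the 6 proximal libraries and from 14.1 to 24.4 RPKM in the 6 distal libraries, with a log2 difference of -0.18 (SE 0.16, limma adjusted p = 0.773). Emilin1, a glycoprotein at the border of elastin and microfibrils that limits transforming growth factor beta in mice, ranged from 4.15 to 8.83 RPKM in proximal and from 2.29 to 7.12 RPKM in distal libraries, with a log2 difference of 0.11 (SE 0.24, limma adjusted p = 0.928). Neither gene separated the locations. The 95% intervals of these differences ran from -0.53 to 0.17 for Fbln1 and from -0.41 to 0.63 for Emilin1.

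The 2 fibulins Efemp1 and Fbln5 stood in different proportion at the 2 locations. Within a library the ratio of Fbln5 to Efemp1 averaged 3.69 ± 1.22 in proximal and 1.43 ± 0.44 in distal tissue (SD, n = 6 each), and it was higher in the proximal library of 6 of 6 mice. Their promoters are shown because 1 of this pair was called between locations and the other was not. The 250 bases before the RefSeq start (GRCm38.p6) are given 5′ to 3′ on the gene's strand, chr11:28852955-28853204 (+) for Efemp1 and chr12:101819120-101819369 (-) for Fbln5. Capitals mark matches, on either strand, to TGANTCA and to the GC box (GGGCGG, or CCGCCC on the other strand). TGANTCA, in which N is any base, is a loosened form of the motif of AP-1 factors.
Efemp1: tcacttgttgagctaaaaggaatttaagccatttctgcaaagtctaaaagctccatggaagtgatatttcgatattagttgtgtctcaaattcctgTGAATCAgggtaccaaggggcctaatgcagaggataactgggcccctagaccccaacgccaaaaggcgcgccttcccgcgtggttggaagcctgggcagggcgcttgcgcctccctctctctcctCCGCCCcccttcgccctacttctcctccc
Fbln5: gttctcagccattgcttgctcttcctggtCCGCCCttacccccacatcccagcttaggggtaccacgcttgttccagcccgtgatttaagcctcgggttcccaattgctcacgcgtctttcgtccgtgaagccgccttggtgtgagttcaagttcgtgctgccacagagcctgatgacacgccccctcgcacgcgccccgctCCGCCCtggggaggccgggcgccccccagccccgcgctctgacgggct
The Efemp1 window held 1 match to TGANTCA, which 6.75% of 32851 mouse promoter windows of this length held, and 1 match to the GC box, which 32.7% held. The Fbln5 window held no match to TGANTCA and 2 to the GC box. The core recognised by the Notch partner RBPJ (TGGGAA, both strands, held by 21.6% of windows) had 1 match in the Fbln5 window and none in the Efemp1 window. A match describes letters only, and the data hold no measurement of binding.

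Within each genotype taken alone, limma called none of the 10 genes between locations, beside 0.237% of all genes in wildtype and 0.254% in the libraries labelled Notch1+/-. At an unadjusted p under 0.05, limma counted 4 of the 10 in wildtype (Fbln5, Efemp1, Mfap4 and Mfap5), beside 1429 of all genes (8.26%). In the libraries labelled Notch1+/- it counted 2 of the 10 (Efemp1 and Mfap5), beside 1240 of all genes (7.17%). The log2 difference of Mfap5 was -0.80 (SE 0.22, limma adjusted p = 0.222) in the libraries labelled Notch1+/- and -1.08 (SE 0.22, limma adjusted p = 0.0746) in wildtype. That of Efemp1 was -1.52 (SE 0.35, limma adjusted p = 0.145) in the libraries labelled Notch1+/- and -1.46 (SE 0.35, limma adjusted p = 0.171) in wildtype. That of Eln was -0.72 (SE 0.53, limma adjusted p = 0.886) in the libraries labelled Notch1+/- and -0.90 (SE 0.53, limma adjusted p = 0.711) in wildtype. That of Mfap4 was -0.42 (SE 0.21, limma adjusted p = 0.735) in the libraries labelled Notch1+/- and -0.50 (SE 0.21, limma adjusted p = 0.564) in wildtype. For these 4 genes the direction was the same in both genotypes. The within-genotype values above took libraries as unpaired. With the mouse as a block the SE for Eln fell to 0.22 in each genotype. Its unadjusted limma p was then 0.00249 in wildtype mice and 0.00887 in mice labelled Notch1+/-, while wildtype Fbln5 came to 0.0559. Eln (limma adjusted p = 0.232 in wildtype, 0.360 in mice labelled Notch1+/-) and the other members stayed uncalled. All 3 proximal libraries lay below all 3 distal ones for 3 of the 10 in the libraries labelled Notch1+/- (Efemp1, Mfap4 and Mfap5), beside 5.53% of all genes tested, and for 4 of the 10 in wildtype (Fbln5, Efemp1, Efemp2 and Mfap5), beside 11.1%.

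The location differences that lay farthest apart between genotypes were those of Efemp2, at 0.43 (SE 0.30) in the libraries labelled Notch1+/- and -0.21 (SE 0.30) in wildtype on the log2 scale, and of Fbln5, at 0.07 (SE 0.19) in the libraries labelled Notch1+/- and -0.43 (SE 0.19) in wildtype. The test of the difference itself, the interaction, gave 0.64 for Efemp2 (SE 0.43, limma adjusted p = 0.9996) and 0.50 for Fbln5 (SE 0.27, limma adjusted p = 0.9996), and neither was called. For the 2 genes called by location, the interaction was 0.28 for Mfap5 (95% interval -0.38 to 0.94) and -0.06 for Efemp1 (-1.14 to 1.03). For Eln, called by location only with the mouse as a block, it was 0.18 (-1.46 to 1.82). With the mouse as a block the interval for Eln narrowed to -0.51 to 0.87, and those of Mfap5 (-0.38 to 0.94) and Efemp1 (-1.20 to 1.09) stayed about as wide. Among all genes tested limma called 0 for the interaction (0%), and 507 (2.93%) had an unadjusted p under 0.05, with none of the 10 among them.

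Between genotypes none of the 10 genes was called. In proximal tissue limma called 0% of all genes (561, or 3.24%, at an unadjusted p under 0.05, with 0 of the 10 among them). Of the 10, 9 were fitted higher in the libraries labelled Notch1+/- (8 with median-of-ratios scaling, where Mfap4 turned lower). Their median log2 difference was 0.26, beside 0.11 over all genes tested, of which 31.6% were fitted lower. The values ran from -0.20 for Efemp1 (SE 0.35) to 0.53 for Eln (SE 0.53), with 0.45 for Efemp2 (SE 0.30), 0.44 for Fbn1 (SE 0.27) and 0.32 for Fbln5 (SE 0.19), each at a limma adjusted p = 0.999. For 2 of the 10, Fbn1 and Mfap5, all 3 proximal libraries labelled Notch1+/- lay above all 3 wildtype ones, as did 7.78% of all genes tested, and neither was called. Fbn1 averaged 32.0 ± 3.18 RPKM in libraries labelled Notch1+/- and 23.8 ± 4.88 RPKM in wildtype, and Mfap5 averaged 26.3 ± 0.68 RPKM in libraries labelled Notch1+/- and 22.8 ± 2.71 RPKM in wildtype (SD, n = 3 each). The fitted difference of Mfap5 there was 0.21 (SE 0.22, limma adjusted p = 0.999).

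In distal tissue limma called 0% of all genes between genotypes (524, or 3.03%, at an unadjusted p under 0.05, with 0 of the 10 among them). Of the 10, 6 were fitted higher in the libraries labelled Notch1+/- (3 without mitochondrial genes and 5 with a constant sum). Their median log2 difference was 0.05, beside -0.04 over all genes tested, of which 57.0% were fitted lower. The values ran from -0.19 for Efemp2 (SE 0.30) and -0.18 for Fbln5 (SE 0.19) to 0.45 for Emilin1 (SE 0.34) and 0.52 for Mfap2 (SE 0.61), each at a limma adjusted p = 1. The distal mean of Eln was 203.7 ± 58.6 RPKM in libraries labelled Notch1+/- and 197.0 ± 149.0 RPKM in wildtype (SD, n = 3 each). None of the 10 separated the genotypes there, beside 6.37% of all genes tested. In the authors' deposited table, the false discovery rate for location was 0.0422 for Mfap5, 0.0807 for Efemp1, 0.308 for Mfap4 and 0.617 for Eln, and that for genotype was 0.999 for all 10.

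The summed level of the 10 genes averaged 940.6 ± 78.3 RPKM in proximal and 1368 ± 276.8 RPKM in distal tissue (SD, n = 6 each), and it was lower in the proximal library of 6 of 6 mice. Mfap4 alone made up 74.4 ± 5.24% of the sum in proximal and 71.4 ± 3.62% in distal tissue, lower in 2 of 6 mice. Eln made up 11.5 ± 4.72% in proximal and 14.1 ± 5.68% in distal tissue, lower in the proximal library of 6 of 6 mice. The ratio of Eln to Fbn1, elastin against its scaffold, averaged 3.76 ± 1.0 in proximal and 5.72 ± 2.55 in distal tissue, again lower in 6 of 6 mice. The ranges of the locations overlapped for each of these shares and for this ratio. They also overlapped for the sum, at 833.4 to 1010 RPKM in proximal and 906.7 to 1748 RPKM in distal libraries.

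The summed level of 10 smooth muscle markers was 4116 ± 642.2 RPKM in proximal and 4371 ± 818.2 RPKM in distal tissue, lower in the proximal library of 3 of 6 mice, and 1 of the 10 was called, higher in proximal tissue. For 12 adventitial fibroblast markers the sum was 537.8 ± 90.4 RPKM in proximal and 564.0 ± 78.4 RPKM in distal tissue, lower in 3 of 6 mice, and 1 of 12 was called, lower. By gene, 8 of the 12 fibroblast markers were fitted lower in proximal tissue, with a median log2 difference of -0.31 beside -0.29 for the 10 elastic fibre genes, and the mean log2 level of the list was lower in the proximal library of 5 of 6 mice. The mean log2 level of the smooth muscle list was 7.56 ± 0.24 in proximal and 7.40 ± 0.29 in distal tissue, lower proximally in 2 of 6 mice. The members were also set against this mean in the same library, so a higher mean puts them lower. On that scale Eln, Fbn1, Efemp1, Mfap4 and Mfap5 were lower in proximal tissue in 6 of 6 mice. Medians were -1.06 for Eln, -1.60 for Efemp1 and -1.07 for Mfap5, against -0.75, -1.33 and -0.95 by level alone. Fbln1 was lower in 5 of 6 mice, Fbln5, Efemp2 and Mfap2 in 4 and Emilin1 in 3. By level alone, Fbn1 was lower in 4 of 6 mice and Mfap4 in 5 of 6. Set against the fibroblast list, Eln, Efemp1 and Mfap5 were lower in 6 of 6 mice, with medians of -0.53, -1.43 and -0.72. Fbn1, Mfap2 and Mfap4 were lower there in 4 of 6 mice, and Fbln1, Fbln5, Efemp2 and Emilin1 in 2 of 6. The share of all genes lower in 6 of 6 mice was not computed on either scale. Of the other lists, 7 of 8 cartilage and valve genes were called higher in proximal tissue, 1 of 10 endothelial genes was called higher, 1 of 7 mesothelial genes was called lower, and no macrophage, fat, red blood cell or nerve gene was called. All 7 mesothelial genes were fitted lower in proximal tissue (median log2 difference -0.82), and their sum was 9.65 to 32.2 RPKM in proximal and 24.0 to 58.7 RPKM in distal libraries, lower in 5 of 6 mice. All 5 red blood cell genes were fitted lower (median -0.54). All 7 macrophage genes were fitted higher (median 0.81), with a sum of 54.0 to 89.8 RPKM in proximal and 16.5 to 68.8 RPKM in distal libraries, as were 5 of 6 fat genes (median 0.63) and both nerve genes (median 0.62). The fitted directions of the fibroblast, mesothelial, red blood cell, macrophage, fat and nerve lists were the same under the 4 other scalings. The summed cartilage and valve level was 65.9 to 188.8 RPKM in proximal and 5.45 to 16.7 RPKM in distal libraries, and the part of any of these lists in the members' differences was not tested.

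A wider list of 47 other elastic fibre genes (fibulins, EMILIN and multimerin family, latent transforming growth factor beta binding proteins, lysyl oxidases, elastases and assembly factors) had 36 tested. Of these 1 was called higher, none lower, 26 were fitted lower and 10 higher in proximal tissue, with a median log2 difference of -0.21. Over all genes tested 58.5% were fitted lower, with a median of -0.05. The called gene was Mmrn1, multimerin 1, a relative of Emilin1 made by platelets and endothelial cells. It averaged 5.96 ± 1.29 RPKM in proximal and 0.921 ± 0.99 RPKM in distal tissue (SD, n = 6 each), with 3 distal libraries at the floor (log2 difference 2.45, SE 0.33, limma adjusted p = 0.0032), and it was also called in the libraries labelled Notch1+/- alone (log2 difference 2.93, limma adjusted p = 0.0272). The next 3 by p were not called: Fbln2, a fibulin that binds fibrillin and tropoelastin, with a log2 difference of -0.69 (limma adjusted p = 0.0838), Ctss, an elastin-degrading cathepsin, with 0.88 (limma adjusted p = 0.158), and Fbln7, a fibulin-family adhesion protein, with 0.86 (limma adjusted p = 0.158).

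Across the 12 libraries the genes fell into loose pairs, described here by Pearson's r of log2(RPKM + 0.5), in which libraries share mice, depth and location. The highest values were 0.86 for Mfap4 with Mfap5, 0.84 for Efemp1 with Mfap5 and 0.81 for Eln with Fbn1. With the group means taken out, Efemp1 with Mfap5 came to 0.30, Mfap4 with Mfap5 to 0.69 and Eln with Fbn1 to 0.75, while Eln with Emilin1 came to 0.91 and Fbn1 with Emilin1 to 0.89. In wildtype, Eln and Emilin1 put the 3 mice in the same order at each location. In the libraries labelled Notch1+/- the orders differed. In distal tissue mouse 3 had the highest Eln (271.3 RPKM) but Emilin1 at 6.35 RPKM, below 7.08 RPKM in mouse 2. The part of the wildtype distal library of mouse 1, the lowest distal library for both genes, in this r was not tested. The r within groups was not set against that of all pairs of genes. Efemp1 and Mfap5 mainly shared the step between locations.

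Among all genes tested, those most like Eln over the 12 libraries were Camk2b (r = 0.98), Ccdc42 (0.96), Lox (0.95), 2310022B05Rik (0.95) and Asph (0.94). Lox encodes the lysyl oxidase that cross-links elastin. Its levels averaged 22.8 ± 5.16 RPKM in proximal and 38.3 ± 15.7 RPKM in distal tissue (SD, n = 6 each), lower in the proximal library of 6 of 6 mice, and it was not called (log2 difference -0.67, limma adjusted p = 0.309). Most like Mfap5 were 5730596B20Rik (r = 0.94), Sod3 (0.93), Scarf2 (0.93), Slc22a3 (0.93) and Ergic1 (0.93), and most like Efemp1 were Gpr155 (0.95), Slc4a4 (0.94), Svep1 (0.93), RP23-446O17.5 (0.92) and Cmah (0.92).

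**Figure D4:**
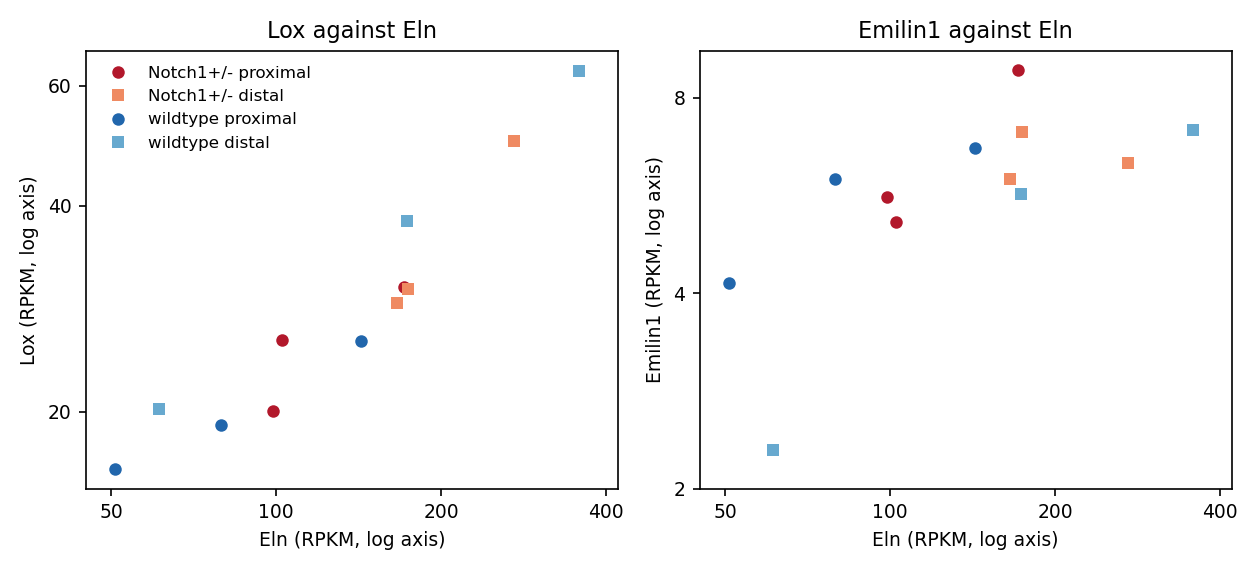
RPKM of Lox (left) and Emilin1 (right) against RPKM of Eln on log axes, with 1 point for each of the 12 libraries; circles are proximal and squares distal, red for libraries labelled Notch1+/- and blue for wildtype. Lox follows Eln through all 4 groups, and the wildtype distal library of mouse 1 is the lowest distal library for all 3 genes, at 61.3 RPKM for Eln, 20.2 RPKM for Lox and 2.29 RPKM for Emilin1.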

How the data were processed

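Total RNA was amplified with a NuGEN Ovation kit, which does not mark strand, and sequenced as paired reads. The submitters' processing notes name the build mm10, TopHat2 2.1.0, Bowtie2 and R 3.2.2. The annotation version and the counting tool are not given in the sources used here. For each gene and library the authors deposited an RPKM value, with values under 0.158 RPKM replaced by it per the file headers, and a table of ANOVA and Tukey p-values, false discovery rates and fold changes (ratios of group means). A further 24 columns of per-sample values were not used. RPKM denominators worked back from the values were 14476722 to 20017786 reads, and amplified reads are not independent molecules.

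The design planned for either unit; as the files hold RPKM, limma 3.58.1 in R 4.3.3 was fitted to log2(RPKM + 0.5) with a variance trend and 1 mean per group, for 6 contrasts, 2-sided, over 17297 genes. Fold changes on this scale understate low genes. The fit was tested on simulated data. The members, gene lists and rules were chosen with earlier results of these data known. All 10 members were tested in every comparison and are named for location averaged over genotypes. In the other comparisons values are printed for only some of them. Also named are other pathway genes that were called (or, with under 3 called, the 3 of smallest p) and the 5 genes most like Eln, Mfap5 and Efemp1. Lox is given beyond that as one of those most like Eln. The tissue names in the deposited sample sheet show that proximal and distal libraries of a number are 1 mouse; their deviations from the group means had correlations of 0.073 to 0.216. Exon overlaps come from GENCODE M21 of the same build, and 2 members had a counted length other than the annotated one. Promoters come from RefSeq. Alternatives changed the pseudocount, filter, scaling, block, covariate, weights and libraries.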

Additional observations from a re-analysis of the deposited data

Results flagged for a closer look

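In groups of 6 libraries, 3 values stood apart from the rest of their location on the log2(RPKM + 0.5) scale by a gap that was large for the group's range. Chance flags about 1 in 20 groups. For each of the 10 genes the proximal libraries, the distal libraries and the differences within mice were screened. Emilin1 was at 1.48 in the wildtype distal library of mouse 1, the lowest of the 6 distal libraries, which also had the lowest distal Eln, Fbn1 and Mfap4. Efemp2 was at 1.75 in the distal library of mouse 3 labelled Notch1+/-, the lowest distal value. Mfap5 was at 4.34 in the wildtype proximal library of mouse 3, the lowest proximal value, and that library also had the most Myh6, at 354.5 RPKM, and the lowest proximal Mfap4. The part of these libraries' make-up in the values was not tested.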

How the results depend on the processing

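Leaving out 1 library in turn gave 2 to 3 genes called for location averaged over genotypes, 0 to 1 in wildtype and 0 in the 4 other comparisons. With the heart muscle score as a covariate 0 were called for location averaged. In wildtype 1 gene, Mfap5, was called with median-of-ratios or quantile scaling, without mitochondrial genes or with array weights, and in the libraries labelled Notch1+/- 1, Mfap5, with array weights. With the mouse as a replicate block 3 were called for location averaged (log2 difference -0.81 for Eln), and no other call of the 10 changed. The counts that follow cover 39 pairs of member and comparison, blocked fits included, and leave out the other pairs. Members outside these pairs also changed direction. For the interaction 7 of the 10 were fitted higher, but 4 with median-of-ratios or quantile scaling. Of 890 recomputed member values, 836 kept direction and side of the threshold, and 29 changed direction, all of them values that were not called. Location averaged: Efemp2 -0.21 with the heart score, -0.051 with array weights and -0.041 to 0.25 without 1 library; Emilin1 -0.61 with the heart score and -0.11 to 0.25 without 1 library; Mfap2 0.21 with array weights. Fbln5 by location in libraries labelled Notch1+/- came to -0.031 with quantile scaling and -0.043 to 0.24 without 1 library. By genotype, proximal Efemp1 came to -0.48 to 0.014 and distal Efemp2 to -0.40 to 0.11 without 1 library, and with array weights distal Efemp2 to 0.12 and distal Mfap2 to -0.47. For the interaction, Eln came to -0.018 with median-of-ratios scaling, -0.092 with quantile scaling, -0.025 without the distal libraries with the most Myh6 and -0.41 to 0.85 without 1 library; Efemp1 came to 0.055 with a constant sum, 0.041 without mitochondrial genes, 0.27 with array weights and -0.34 to 0.34 without 1 library. Median-of-ratios and quantile scaling moved the median log2 difference of all genes by 0.12 and 0.10 for location in wildtype, -0.12 and -0.11 for genotype in proximal tissue and -0.17 and -0.16 for the interaction; a constant sum moved that for location in wildtype by -0.13, and leaving out mitochondrial genes moved that for genotype in distal tissue by -0.11. The cause of these changes was not tested. The blocked fits with other scalings, with other pseudocounts and without 1 mouse were chosen after seeing the data. Mfap2 rests on 4 to 74 reads in the libraries above the floor.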
